A study of Mus musculus with 6 samples.

Results

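The genes described here are 10 genes of the integrated stress response, chosen by name: Atf4 itself and 9 genes known as targets of its protein or as part of the same response (Ddit3, Trib3, Chac1, Asns, Psat1, Phgdh, Sesn2, Slc7a11 and Atf3). All 10 were found among the 17382 genes of the deposited table, and all 10 passed the filter of at least 0.1 TPM in at least 3 libraries. TPM is a read count divided by gene length and scaled to the same total in every library, so TPM levels can be compared between genes. The genes were named with earlier results of these data known.

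RNA was measured in 6 cultures of mouse bone marrow cells, 3 labelled knockout and 3 labelled wild type. All came from C57BL/6 mice 2 months old with both PD-L1 alleles floxed, and the cultures received M-CSF at 40 ng/mL, which drives marrow precursors toward macrophages, for 3 days in α-MEM with 10% FBS. The genotype of the knockout group is PD-L1 flox/flox with lysozyme-Cre, a Cre recombinase active in myeloid cells, and that of the wild-type group PD-L1 flox/flox without Cre, so both groups carry the floxed alleles. The design text names biological triplicates; nothing says that each library came from its own animal, so the p-values below measure the spread between these samples.

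The integrated stress response slows protein synthesis when cells lack amino acids, hold misfolded proteins in the endoplasmic reticulum, lack haem or sense double-stranded RNA. Kinases for each of these signals phosphorylate the initiation factor eIF2α, which lowers translation of most mRNAs and raises translation of Atf4 mRNA through short upstream reading frames. The ATF4 protein, a bZIP transcription factor, then induces genes for amino acid synthesis and import, for tRNA charging, for glutathione metabolism and, under lasting stress, for cell death. In macrophages this programme is known to respond to nutrient supply and to activation. Because much of the control of Atf4 lies in translation, its mRNA level is an incomplete readout of the response.

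ATF4 is known to bind a composite element whose core is covered by TGATGNAA, read on both strands. RefSeq promoters of build GRCm38.p6, from 250 bases before to 50 after the annotated start, were at hand for all 10 genes, in 11 promoters since Psat1 has a pair. TGATGNAA was found in 5 of these 11 promoters, those of Chac1, Asns, Slc7a11, Atf3 and Trib3, and in 3.97% of the 32851 promoters of the reference. Neither TGACGTCA, the cAMP response element, nor the endoplasmic reticulum stress response element was found in any of the 11, so no matches overlapped; these elements occur in 1.79% and 0.119% of all promoters. The 5 stretches are shown because the genes that hold them are among those described below; they are written 5′ to 3′ on the strand of the gene, with the matches in capitals.
Chac1: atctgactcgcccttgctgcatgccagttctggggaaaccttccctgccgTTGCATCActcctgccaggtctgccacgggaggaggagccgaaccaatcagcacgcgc
Asns: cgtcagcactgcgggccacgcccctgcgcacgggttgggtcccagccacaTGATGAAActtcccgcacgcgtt
Slc7a11: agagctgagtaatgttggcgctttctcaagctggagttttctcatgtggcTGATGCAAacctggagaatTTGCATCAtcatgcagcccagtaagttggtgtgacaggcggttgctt
Atf3: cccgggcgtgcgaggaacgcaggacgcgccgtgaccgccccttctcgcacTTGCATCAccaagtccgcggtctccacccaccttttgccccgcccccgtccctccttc
Trib3: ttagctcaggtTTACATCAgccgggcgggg
The Chac1 stretch is chr2:119350999-119351106 on the plus strand, with the first base of the match at -193 from the start. The others are on the minus strand: Asns at chr6:7693210-7693282 with its match at -23, Slc7a11 at chr3:50443614-50443729 with matches in both directions at -66 and -47, Atf3 at chr1:191183386-191183493 with its match at -110, and Trib3 at chr2:152344028-152344057, where the match begins 15 bases into the transcribed part. A match is a description of the letters; binding was not measured here. No match in this window says nothing of elements elsewhere in Atf4, Ddit3, Psat1, Phgdh or Sesn2.

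Counted in units of 1000000 reads recovered from the TPM values, depth ran from 52.4 to 77.3, with 60.6 in knockout 3. The level of Cd274, which encodes PD-L1, was no lower with the knockout label (19.3, 19.2 and 29.2 TPM) than in wild type (17.9, 15.5 and 23.7 TPM), so groups are named here by their labels alone. Loss of the floxed exons cannot be checked with a value for the whole gene. Lyz2, the other gene used to check labels, was lower in knockout without overlap. It had 19100.5, 19353.9 and 13231.7 TPM in the knockout libraries and 26706.7, 27492.7 and 40358.4 TPM in wild type. Its log2 difference of -0.87 ± 0.27 did not pass over all genes (limma). Of all genes tested, 2.27% were lower in knockout without overlap. What lowered Lyz2 was not tested. The 7 macrophage markers were at a summed level of 17471 to 24763 TPM in the knockout group and 31816 to 45996 TPM in wild type, most of it Lyz2, and none was at 0. By log2 difference 4 of the 7 were higher in knockout, and without Lyz2 the sums overlapped, at 4239 to 5409 TPM and 4548 to 5638 TPM. Along the first principal component, computed without the 10 genes and holding 44.3% of the variance, knockout 3 and wild type 1 and 2 lay on the positive side (31.5, 19.8 and 19.2) and knockout 1 and 2 and wild type 3 on the negative side (-23.0, -17.4 and -30.1). The sides were read from the values and are not groups of the study.

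All 10 genes were highest in the same library, knockout 3, and knockout 1 exceeded the highest wild-type library for Ddit3 and Atf3 only, knockout 2 for none. Over all 13722 genes tested, knockout 3 was the highest library for 19.5%. No gene separated the genotypes: the knockout and wild-type groups overlapped for 10 of 10, where groups did not overlap for 5.12% of all genes tested, 2.84% with knockout higher and 2.27% with knockout lower. With limma on log2(TPM + 0.1), 0 of the 10 passed an adjusted p of 0.05 in either direction, beside 0.0% of all genes higher and 0.0% lower in knockout, and 0 of the 10 passed with limma-voom on recovered reads. At an unadjusted p under 0.05 the count was 0 of 10, against 2.18% of all genes.

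**Figure D1:**
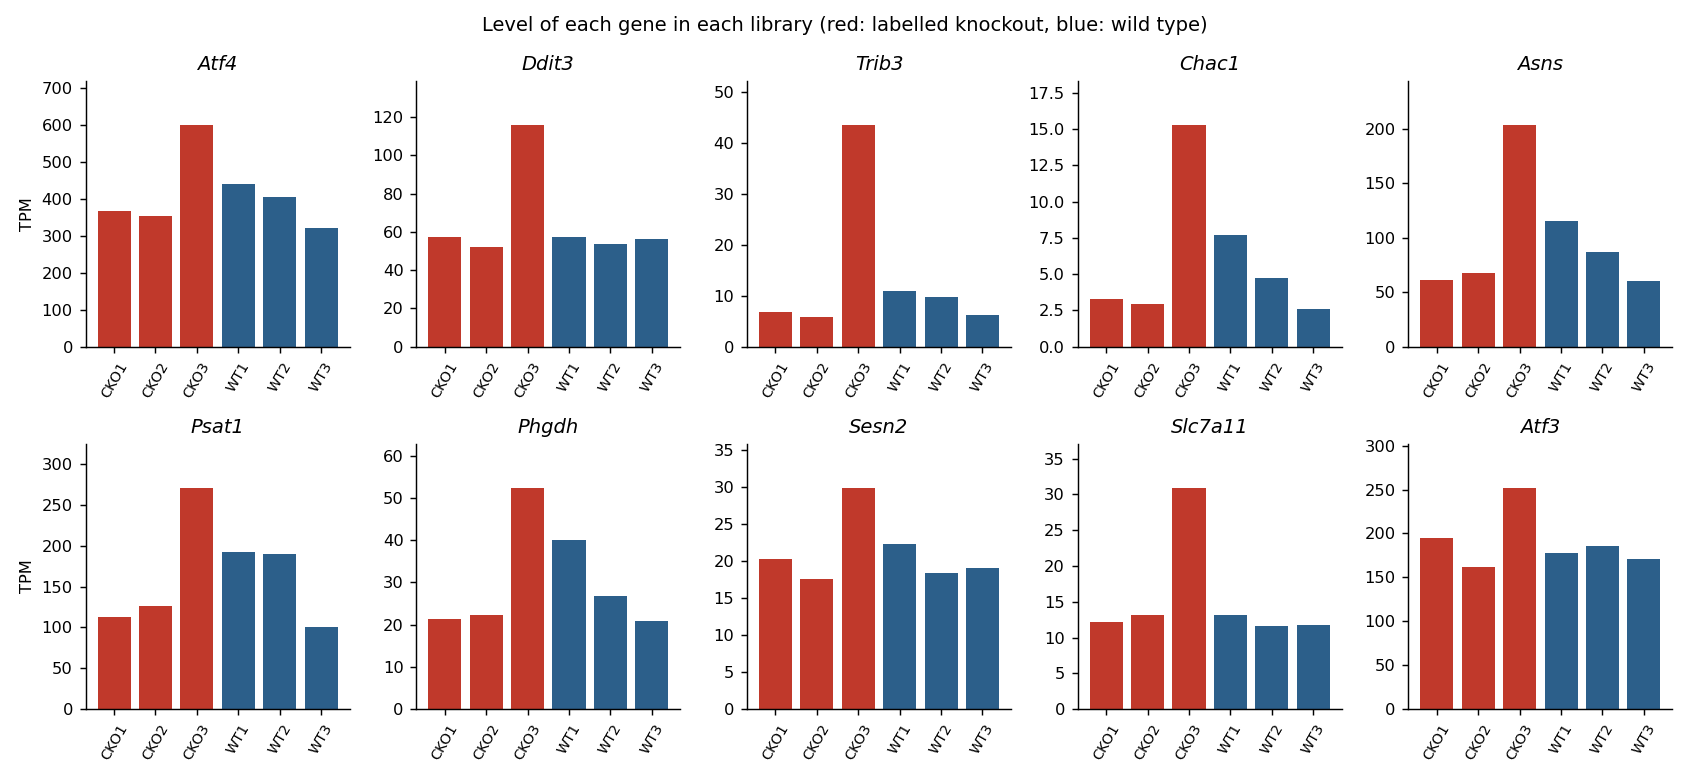
TPM (linear axis from 0, its own scale per gene) of each of the 10 genes in the 3 libraries labelled knockout (red) and the 3 of wild type (blue), 1 bar per library. Knockout 3 is the highest bar in all 10 panels, and wild type 1 the next highest in 8.

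Among the regulators, Atf4 was the most abundant. Its position in mm10 is chr15:80255184-80257545, plus strand; all gene positions here are those of the deposited table, counted from 1. Its level was 366, 354 and 599 TPM in knockout 1, 2 and 3 and 440, 405 and 322 TPM in wild type 1, 2 and 3. Knockout 3 was 1.36 times the next library, wild type 1, and knockout 1 and 2 lay between wild type 2 and wild type 3. The group means were 440 ± 138 and 389 ± 61 TPM (SD, n = 3 each), and the log2 difference was 0.15 ± 0.23 (SE; 95% interval -0.40 to 0.69; limma adjusted p = 1.0).

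Ddit3, which encodes CHOP, a bZIP factor induced by ATF4 and tied to cell death under lasting stress, was nearly level in 5 libraries and high in knockout 3. Its position is chr10:127290793-127296288, plus strand. It had 57.6, 52.4 and 115.8 TPM in the knockout libraries and 57.2, 53.4 and 56.5 TPM in wild type. The 5 libraries other than knockout 3 differed by at most 1.10-fold, and knockout 3 was 2.01 times the highest of them. The last 68 bases of the gene overlap the end of Mars on the opposite strand, and whether reads were counted by strand is not given in the sources. Mars, the methionyl-tRNA synthetase gene, named after its values were seen, had 59.2, 61.0 and 86.3 TPM in the knockout libraries and 83.9, 73.5 and 52.9 TPM in wild type, another order. The log2 difference of Ddit3 between the genotypes was 0.34 ± 0.29 (95% interval -0.35 to 1.03; limma adjusted p = 1.0).

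Trib3, a pseudokinase induced by ATF4 and CHOP that restrains both ATF4 and Akt signalling, had the widest range of the 10. Its position is chr2:152337425-152344060, minus strand. It had 6.70, 5.89 and 43.4 TPM in the knockout libraries and 10.9, 9.72 and 6.17 TPM in wild type. Knockout 3 was 3.97 times the next library and 7.38 times the lowest, and knockout 2 was the lowest of all 6. The group means of 18.7 ± 21.4 and 8.94 ± 2.48 TPM (SD, n = 3 each) gave a log2 difference of 0.46 ± 0.75, with a 95% interval of -1.34 to 2.26 (limma adjusted p = 1.0).

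Atf3, a bZIP repressor and early stress gene that many signals besides ATF4 induce, varied least. Its position is chr1:191170297-191183333, minus strand, and it had 195, 162 and 252 TPM in the knockout libraries and 178, 186 and 171 TPM in wild type. Knockout 3 was highest by 1.29-fold over knockout 1, and knockout 2 was below every wild-type library. The log2 difference was 0.16 ± 0.16 (95% interval -0.22 to 0.54; limma adjusted p = 1.0).

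The 3 enzymes of amino acid synthesis shared 1 order of libraries: knockout 3, wild type 1, wild type 2, knockout 2, knockout 1 and wild type 3. Asns makes asparagine from aspartate and glutamine, and its position is chr6:7675171-7693182, minus strand. It had 60.8, 67.5 and 203 TPM in the knockout libraries and 115, 86.9 and 59.7 TPM in wild type. Knockout 3 was 3.40 times wild type 3, and the span of the other 5 libraries was 1.93-fold.

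Phgdh catalyses the entry step of serine synthesis from glycolysis, and Psat1 the transamination that follows it. Their positions are chr3:98313171-98339969 for Phgdh and chr19:15905123-15925059 for Psat1, both minus strand. Phgdh had 21.4, 22.3 and 52.4 TPM in the knockout libraries and 40.2, 26.8 and 20.8 TPM in wild type. Psat1 had 113, 126 and 270 TPM in the knockout libraries and 193, 190 and 99.998 TPM in wild type. For both genes wild type 1 and 2 lay above knockout 1 and 2, so the genotype groups interleaved. The log2 differences were 0.16 ± 0.49 for Asns, 0.05 ± 0.40 for Phgdh and 0.02 ± 0.40 for Psat1 (SE, n = 3 each; limma adjusted p = 1.0 for each). Their 95% intervals reached from -1.01 to 1.32, from -0.90 to 1.003 and from -0.93 to 0.98, so differences approaching 2-fold in either direction lie within them. A processed pseudogene of Phgdh is annotated, and how reads shared with it were counted is not stated.

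Slc7a11 and Chac1 act on cysteine and glutathione from opposite ends: Slc7a11 is the cystine-importing subunit of system xc-, and Chac1 breaks glutathione down. Slc7a11 (chr3:50364936-50443613, minus strand) had 12.2, 13.1 and 30.9 TPM in the knockout libraries and 13.2, 11.6 and 11.7 TPM in wild type. As with Ddit3, the other 5 libraries were close together, within 1.14-fold, and knockout 3 was 2.34 times the next. Its log2 difference of 0.48 ± 0.35 (95% interval -0.35 to 1.31; limma adjusted p = 1.0) was the highest of the 10.

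Chac1 (chr2:119351242-119354327, plus strand) was the least abundant of the 10. It had 3.31, 2.90 and 15.3 TPM in the knockout libraries and 7.73, 4.73 and 2.58 TPM in wild type, from 154, 125 and 582 recovered reads and from 257, 231 and 116. Unlike Slc7a11, it also differed among the other 5 libraries, with wild type 1 at 3.00 times wild type 3. The log2 difference was 0.21 ± 0.69 (95% interval -1.45 to 1.87; limma adjusted p = 1.0).

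Sesn2, a stress-induced inhibitor of mTORC1 that senses leucine, has the position chr4:132492807-132510456, minus strand. It had 20.3, 17.6 and 29.9 TPM in the knockout libraries and 22.4, 18.4 and 19.1 TPM in wild type. Knockout 3 was 1.34 times the next library, wild type 1, and the 5 libraries other than knockout 3 lay within 1.27-fold of each other. The log2 difference was 0.15 ± 0.20 (95% interval -0.34 to 0.64; limma adjusted p = 1.0).

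The sign of every difference but 1 rested on knockout 3. With all 6 libraries 10 of 10 genes had a positive log2 difference, beside 51.1% of all genes tested, with a median of 0.16 for the 10 and 0.003 for all genes. Without knockout 3, 9 of the 10 were negative, and Slc7a11 alone stayed positive at 0.057 (all genes tested: 51.8% positive). The median of the 10 was then -0.23, with the lowest values for Chac1 (-0.54), Trib3 (-0.46) and Asns (-0.40), and 0 passed in limma (smallest adjusted p = 0.925). With knockout 3 and wild type 3 both left out, 2 of the 10, Psat1 (-0.68) and Trib3 (-0.71), were called lower and 0 higher by limma (adjusted p = 0.0181 and 0.0316), beside 5.64% of all genes lower and 5.49% higher; genotype then coincides with the sides described above. Leaving out wild type 3 instead turned 4 genes negative: Psat1 (-0.29), Chac1 (-0.19), Phgdh (-0.17) and Asns (-0.090).

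**Figure D2:**
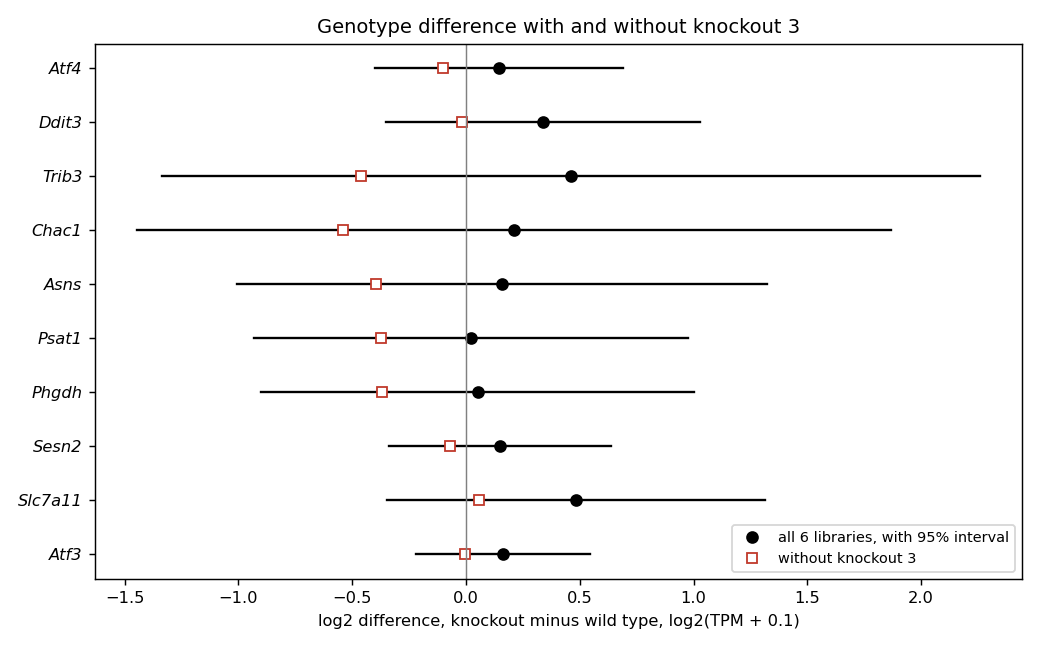
Log2 difference, knockout minus wild type, of log2(TPM + 0.1) for each gene: filled points are the limma estimates from all 6 libraries with 95% intervals, and open squares the estimates without knockout 3. All 10 intervals include 0, and 9 of the 10 squares lie below 0.

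Within the sides of the first component the values also differed in size. On the positive side, where knockout 3 is the only knockout library beside wild type 1 and 2, all 10 differences were positive, from 0.47 (Atf3) to 2.06 (Trib3). Knockout 3 was the highest library for all 10 genes, so these signs were fixed in advance and add nothing on genotype. On the negative side, with knockout 1 and 2 beside wild type 3, they ran from -0.040 (Ddit3) to 0.26 (Chac1), with 8 positive. A term for the side in the limma model kept all 10 positive, with a median of 0.44 and 6 at an unadjusted p under 0.05, beside 7.59% of all genes in that fit, but 0 passed over all genes (smallest adjusted p = 0.549). In that model too the positive side holds 1 knockout library. The side was read from these same values, so the p-values of that fit are descriptive only.

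By the authors' own test, 0 of the 10 genes have an adjusted p under 0.05 in the authors' deposited table, where 0.265% of its 17382 genes do. Trib3 and Slc7a11 have the largest log2 fold changes of the 10 in the authors' deposited table, 1.07 and 0.62, each with an adjusted p of 1.0. Before adjustment the test across all genes in the authors' deposited table gives Slc7a11 p = 0.0264 and Trib3 p = 0.0538. For that test, edgeR is among the tools named in the processing notes, without its role. The share of all genes under 0.05 before adjustment there was not counted, so these p-values have no background beside them.

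How far knockout 3 stood above the other 5 libraries was not the same for all 10. On log2(TPM + 0.1), the difference between knockout 3 and the median of the other 5 was 2.68 for Trib3, 2.17 for Chac1, 1.59 for Asns, 1.33 for Slc7a11, 1.23 for Phgdh, 1.10 for Psat1 and 1.03 for Ddit3. It was 0.71 for Atf4, 0.64 for Sesn2 and 0.50 for Atf3. The median of the 10 was 1.17, against -0.01 over all genes tested. A difference above 1 was seen for 7 of the 10 and for 2.1% of all genes tested. Knockout 3 was picked out from the values of these same 10 genes, so the shares cannot be read as enrichment. These are descriptions of a single library, with no test.

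**Figure D3:**
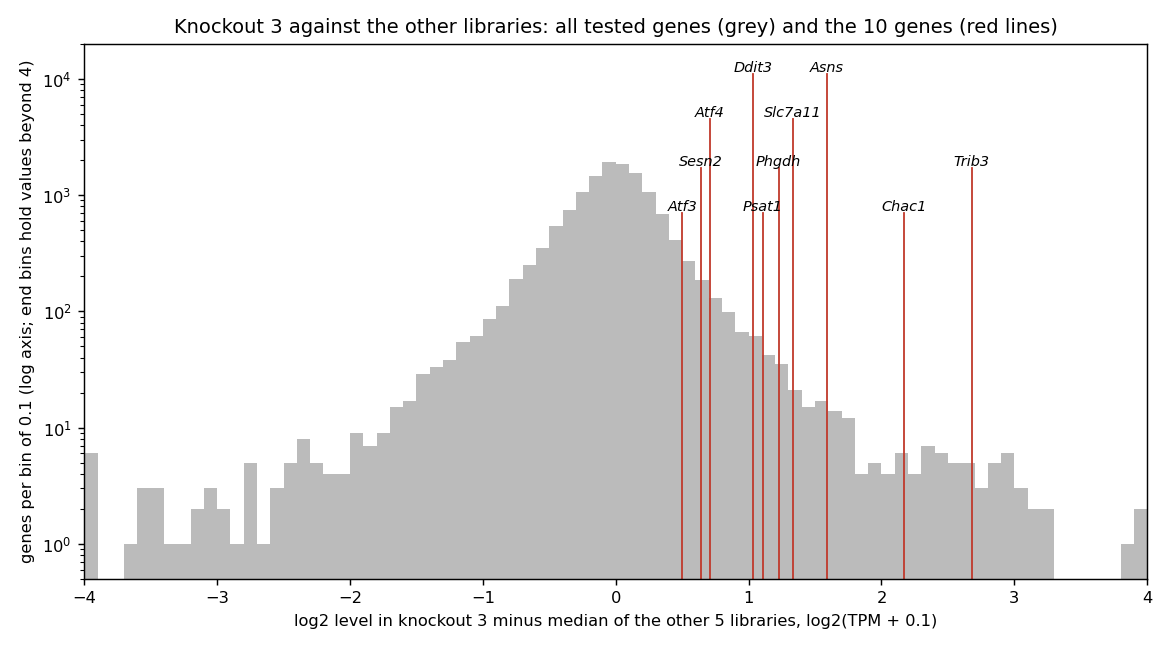
Histogram (log axis) of the difference between knockout 3 and the median of the other 5 libraries, in log2(TPM + 0.1), over the 13722 genes tested (grey), with the 10 genes as red lines. The lines run from 0.50 (Atf3) to 2.68 (Trib3), on the right flank of the distribution.

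Below knockout 3 the 10 genes followed 2 kinds of pattern. For 6 genes (Atf4, Trib3, Chac1, Asns, Psat1 and Phgdh) wild type 1 and 2 also lay above knockout 1, knockout 2 and wild type 3, which is the order of the first component. This order was found for 24.6% of all genes tested. For Ddit3, Sesn2, Slc7a11 and Atf3 the 5 remaining libraries showed no such division, and the next library after knockout 3 was at most 1.27 times the lowest. Both Ddit3 and Slc7a11 thus stood high in knockout 3 alone, and the 3 biosynthesis genes in knockout 3 and, less far, in wild type 1 and 2.

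Further genes of the pathway came from lists by function, also chosen with earlier results known, and 0 genes of any list passed in either direction (limma). The median log2 differences of the 10 lists lay between -0.02 and 0.12, against 0.003 for all genes. Of 130 listed genes 2, Cebpb and Slc43a1, had an unadjusted p under 0.05, or 1.54%, beside 2.18% of all genes tested.

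Amino acid enzymes and tRNA synthetases had the pattern of Asns. Of 11 tested enzymes of serine, one-carbon, proline and transsulfuration metabolism, 10 were highest in knockout 3, and for 11 of 11 knockout 3 and wild type 1 and 2 all lay above the other 3 libraries. Shmt2, the mitochondrial serine hydroxymethyltransferase, had 96.6, 94.8 and 212 TPM in the knockout libraries and 163, 139 and 87.1 TPM in wild type. Mthfd2, the next enzyme of the mitochondrial folate path, had 86.4, 86.7 and 207 TPM and 133, 131 and 71.7 TPM. Aldh1l2, which oxidises formyl-tetrahydrofolate in mitochondria, had 0.745, 0.962 and 4.50 TPM and 1.57, 1.06 and 1.05 TPM, low in every library but highest in knockout 3. Cth, the cysteine-forming enzyme of transsulfuration, named after its values were seen, had 0.206, 0.223 and 2.54 TPM and 0.472, 0.518 and 0.407 TPM.

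Of 14 tested genes of cytosolic aminoacyl-tRNA synthetases and tRNA export, 13 were highest in knockout 3 and 13 had the order of the first component. Aars, the alanyl-tRNA synthetase, had 148, 151 and 250.1 TPM in the knockout libraries and 193, 178 and 140.1 TPM in wild type. Sars, for serine, had 102, 104 and 176 TPM and 120.3, 121 and 102 TPM. The most abundant, Nars for asparagine, was flat outside knockout 3, with 335, 341 and 457 TPM and 335, 337 and 337 TPM. Vars was the exception, highest in wild type 1 at 66.2 TPM with 58.7 TPM in knockout 3. The first component was computed with these genes among the others, and only the 10 genes were left out of it.

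Among 9 amino acid transporters, 6 were highest in knockout 3. Slc3a2, the heavy chain that pairs with Slc7a11, was not: it had 193, 196 and 271 TPM in the knockout libraries and 256, 292 and 186 TPM in wild type. Slc38a2, a carrier of small neutral amino acids, had 132, 135 and 214 TPM and 168, 148 and 135 TPM. Slc7a5, the light chain of the leucine carrier, named after its values were seen, had 21.3, 21.8 and 75.6 TPM and 55.4, 46.7 and 17.5 TPM. Slc43a1 was lower in each knockout library (0.312, 0.312 and 0.240 TPM) than in any of wild type (0.468, 0.495 and 0.526 TPM), with a log2 difference of -0.63 ± 0.19 that did not pass over all genes (limma adjusted p = 1.0). Slc7a3 was the other gene of this list without overlap, higher in knockout at 0.385 to 0.446 TPM against 0.149 to 0.383 TPM. These 2 were the listed genes without overlap, 1.54% of 130, beside 5.12% of all genes tested.

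Genes of the upstream arm peaked in several libraries. Of 14 genes for eIF2α kinases, eIF2α, its phosphatases and eIF2B, 5 were highest in knockout 3, and the median difference of knockout 3 from the other 5 was 0.16; 7 of the 14 had the order of the first component, beside 24.6% of all genes. Eif2ak2, the kinase PKR, which double-stranded RNA activates and interferon induces, had 72.7, 77.4 and 97.3 TPM in the knockout libraries and 73.8, 73.4 and 75.0 TPM in wild type. Eif2s1, eIF2α itself, had 110, 121 and 162 TPM and 132, 157 and 101 TPM. Ppp1r15a, which encodes the phosphatase subunit GADD34 and is itself a target of the response, was highest in knockout 1: 62.2, 37.7 and 42.8 TPM against 37.5, 28.9 and 47.3 TPM.

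Related bZIP factors peaked in different libraries. Of 10 such genes 5 were highest in knockout 3 and 4 in knockout 1. Cebpb, a dimer partner of ATF4 and CHOP, had 46.0, 30.7 and 39.3 TPM in the knockout libraries and 17.9, 25.7 and 32.4 TPM in wild type; its log2 difference of 0.63 ± 0.24 had an unadjusted p of 0.0387 and an adjusted p of 1.0 (limma). Atf5, whose translation is controlled like that of Atf4, had 79.7, 68.4 and 97.9 TPM and 59.1, 61.5 and 75.3 TPM.

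Other reported ATF4 or CHOP targets were mixed, with 10 of 17 highest in knockout 3. Sqstm1, the autophagy receptor p62, had 1001, 957 and 1639 TPM in the knockout libraries and 1022, 851 and 1015 TPM in wild type. Ddit4, an inhibitor of mTORC1, had 4.13, 4.50 and 8.43 TPM and 4.40, 3.22 and 4.02 TPM. Gdf15, a secreted stress factor, was high in knockout 1 as well: 109, 53.8 and 122 TPM against 75.3, 62.9 and 52.8 TPM.

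In neighbouring stress programmes knockout 3 lay closer to the other libraries. The 19 chaperone and related genes of the ATF6 and XBP1 arms of the unfolded protein response had a median knockout 3 difference of 0.22, with none above 1. Still, 12 of 19 were highest in knockout 3, beside 19.5% of all genes tested. The order of the first component was found for 9 of 19, beside 24.6% of all genes tested. Calr and Hsp90b1, the most abundant of this list, were highest in wild type 2, at 2783 and 2243 TPM, with 2530 and 2170 TPM in knockout 3. Of those with the smallest p, Dnajb9 (68.5 TPM) and Ern1 (27.8 TPM) were highest in knockout 3 and Sec61b (286 TPM) in knockout 1. For 13 antioxidant genes of the NRF2 programme, which also induces Slc7a11, the median was 0.20 and 6 were highest in knockout 3. Hmox1, haem oxygenase, had 1393, 1522 and 2303 TPM in the knockout libraries and 2067, 2118 and 1390 TPM in wild type. Slc7a11 was nearly level outside knockout 3, with 13.2, 11.6 and 11.7 TPM in wild type and 12.2 and 13.1 TPM in knockout 1 and 2. Whether NRF2 had a part in the level of Slc7a11 was not tested. For 12 targets of p53, which also induces Sesn2, the median was 0.07 and 2 were highest in knockout 3. A part of p53 in the level of Sesn2 was not tested either.

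Immediate early genes, a list that Atf3 resembles in its quick induction, had their peak elsewhere: 9 of 13 were highest in knockout 1 and 1 in knockout 3. Junb had 88.1, 32.4 and 35.2 TPM in the knockout libraries and 31.2, 32.3 and 44.5 TPM in wild type. In knockout 1, where this list stood at a centred median of 0.49, Atf3 was second highest, and so was Ddit3. Whether a signal shared with the immediate early genes had a part in this was not tested.

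**Figure D4:**
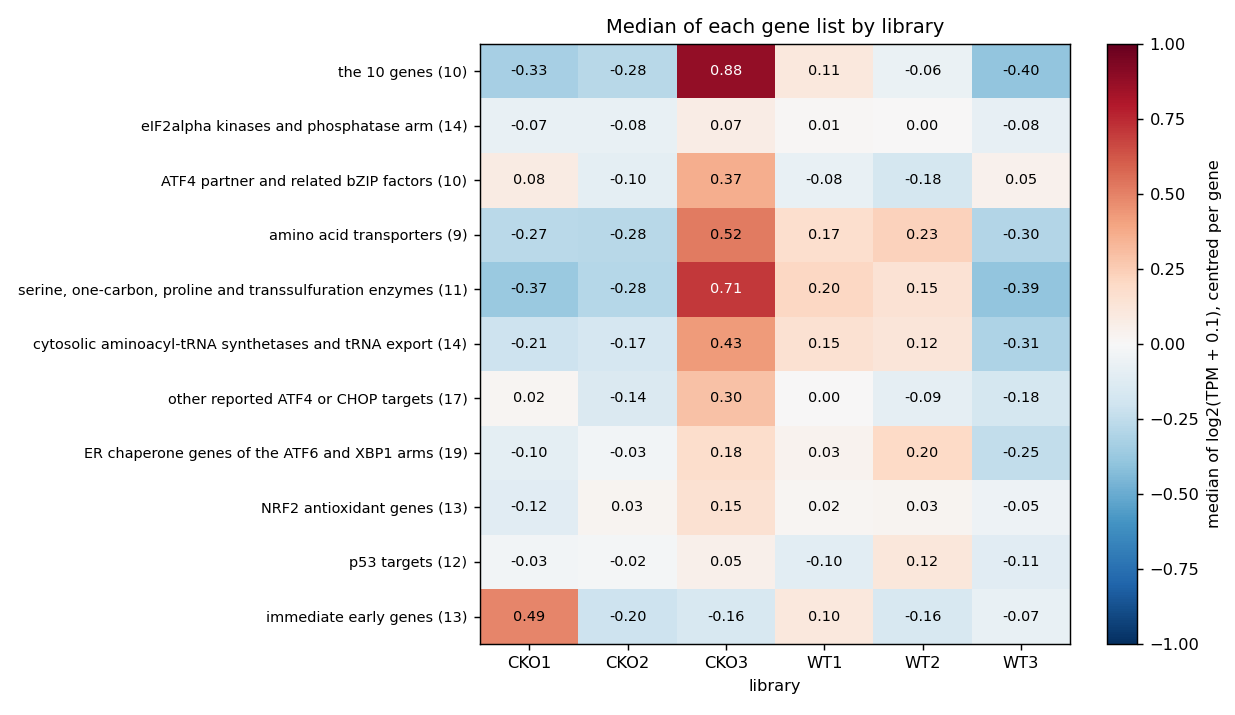
Median over each list (number of genes tested in brackets) of log2(TPM + 0.1) centred per gene, by library. The 10 genes (0.88) and the enzyme (0.71), transporter (0.52), tRNA synthetase (0.43), bZIP (0.37), other target (0.30), NRF2 (0.15) and eIF2α (0.071) lists are highest in knockout 3, the chaperone (0.20) and p53 (0.12) lists in wild type 2 and immediate early genes in knockout 1 (0.49).

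The genes nearest to the mean of the 10 were sought among 11641 others with a mean of at least 1 TPM, by the root mean square difference of centred log2 values over the 6 libraries. The mean of the 10 stood at -0.31, -0.36 and 1.002 in the knockout libraries and 0.18, -0.07 and -0.43 in wild type. The 8 nearest were Spp1 (0.057), Rhov (0.074), Slc16a3 (0.097), Ero1l (0.097), Tmem158 (0.11), Ankrd37 (0.12), Ptgir (0.12) and Il1rn (0.12). Of these only Ero1l, the oxidase of disulfide formation, is on any of the lists by function, that of other ATF4 or CHOP targets. Ero1l had 33.9, 33.4 and 79.7 TPM in the knockout libraries and 41.9, 43.8 and 30.9 TPM in wild type. Spp1, which encodes osteopontin, had 2112, 1953 and 5056 TPM and 3096, 2379 and 1786 TPM. Slc16a3, the lactate exporter MCT4, had 21.0, 18.2 and 58.7 TPM and 29.8, 23.7 and 18.9 TPM.

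Marker sums of other cells also varied between libraries, and their part in these results was not tested. The 7 T and NK cell markers were all higher in knockout by log2 difference, with a summed level of 6.19 to 9.47 TPM against 2.86 to 4.33 TPM in wild type; it was highest in knockout 3, and 2 of the 7 were at 0 in at least 1 library. The summed levels of the 7 macrophage, 6 B cell and 4 megakaryocyte markers were lowest in knockout 3, at 17471, 50.4 and 783 TPM. The macrophage sum without Lyz2 was also lowest there, at 4239 TPM. Its members went both ways: Fcgr1 (197 TPM) and Itgam (549 TPM) were highest in knockout 3, and the other macrophage markers were each lowest there. The B cell sum was 50.4 to 84.2 TPM in the knockout group and 81.7 to 103 TPM in wild type, with 0 of 6 markers higher in knockout, and the megakaryocyte sum 783 to 1139 TPM against 960.1 to 1053 TPM, with 1 of 4 higher; none of these markers was at 0. Knockout 3 was neither highest nor lowest for the other 4 lists. Sums were 2635 to 3093 TPM in knockout and 2216 to 3237 TPM in wild type for 5 neutrophil markers, and 28.4 to 54.8 TPM and 45.0 to 86.1 TPM for 5 erythroid markers. They were 6.99 to 9.16 TPM and 5.30 to 8.62 TPM for 4 mast cell and basophil markers, and 0.586 to 0.628 TPM and 0.634 to 1.38 TPM, without overlap, for 5 stromal markers. By log2 difference 3 of 5 neutrophil, 0 of 5 erythroid and 3 of 4 mast cell and basophil markers were higher in knockout. No stromal marker was, but Col3a1 among them did not pass the filter and had no log2 difference. None of the markers of these lists was at 0. In bulk RNA, a different share of cells and a different amount of RNA per cell cannot be told apart.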

How the data were processed

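Total RNA of 6 cultures was sequenced from strand-specific libraries. Per the submitters' processing notes the build was mm10 and the tools included TopHat2 2.0.12, featureCounts and edgeR; settings, gene models and the order of steps are not given in the sources used for this text. Deposited by the authors was 1 table with a TPM value per gene and library, a unit read from the values, which sum to 1000000 in each library. Per the file headers it also holds log2 fold changes, likelihood ratio scores, log2 CPM means and p-values (raw and adjusted) from the authors; a positive fold change there means higher in knockout, from the values. Starts in the table count from 0 and were shifted by 1; all 10 genes overlap their RefSeq position.

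Whole reads were recovered by a search over ratios between libraries, within 0.01 of a read for 100.0% of 94034 values above 0. The genotypes were compared with limma (version 3.58.1, R 4.3.3; mean-variance trend, two-sided, Benjamini-Hochberg over 13722 genes) on log2(TPM + 0.1), which understates changes of low genes. The fit was tested on simulated reads whose libraries were independent, without a component shared across genotypes as in these data. That test therefore does not show how the fit behaves here. With 3 against 3 samples an exact permutation test was not used. ± is the SD of 3 libraries or the SE of a log2 difference.

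The 10 genes, the lists and the alternatives (pseudocounts of 1 and 0.01, filters, scaling, limma-voom, replicate block, side of the first component, left-out libraries) were chosen with earlier results of these data known. Named genes are the 10, Cd274 and Lyz2, 3 genes of each list by smallest p and 2 by abundance, of which the text gives some, and the 8 genes nearest to the mean of the 10. Others are said to be named after their values were seen. No protein sequences were used here.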

Additional observations from a re-analysis of the deposited data

How the results depend on the processing

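The limma count of 0 genes higher and 0 lower held under the pseudocounts, filters, median centring, limma-voom, the replicate block, the term for the side and each single left-out library; without knockout 3 and wild type 3 together it was 738 higher and 758 lower (5.49% and 5.64% of all genes), where genotype and side coincide. In that setting 9 of the 10 genes were negative: Atf4 -0.23, Ddit3 -0.0095, Trib3 -0.71, Chac1 -0.94, Asns -0.64, Psat1 -0.68, Phgdh -0.58, Sesn2 -0.10 and Atf3 -0.035, of which Psat1 and Trib3 passed (limma adjusted p = 0.0181 and 0.0316). The list medians then moved to -0.49 (transporters), -0.59 (serine and one-carbon enzymes), -0.33 (tRNA synthetases) and -0.094 (p53 targets). Over the 6 left-out libraries the difference ran from -0.10 to 0.28 for Atf4, -0.020 to 0.55 for Ddit3, -0.46 to 0.97 for Trib3, -0.54 to 0.64 for Chac1, -0.40 to 0.47 for Asns, -0.37 to 0.26 for Psat1, -0.37 to 0.31 for Phgdh, -0.071 to 0.31 for Sesn2, 0.057 to 0.72 for Slc7a11 and -0.0054 to 0.31 for Atf3. The low ends are those without knockout 3. On the negative side of the first component Ddit3 and Sesn2 were negative, at -0.040 and -0.014. Under both pseudocounts, both filters, median centring, limma-voom and the block all 10 genes were positive. The labels do not say whether replicate numbers pair the samples. Deviations of same-numbered libraries correlated at -0.24, -0.15 and -0.53, and 0 of 6 libraries correlated best with their own number. The first component also enters these deviations, with knockout 3 and wild type 3 on opposite sides. They therefore cannot exclude a batch shared by number. With the replicate block the difference of Trib3 was 0.46 ± 0.79 and 0 genes passed. With 3 libraries per group and 1 far from the others, the intervals of Trib3, Chac1 and Asns include changes of over 2-fold in either direction. Those of Slc7a11, Ddit3 and Phgdh include such changes with knockout higher. Changes of that size could thus go undetected in these genes.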
